A study of Homo sapiens with 6 samples.

Results

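The genes described here are the 9 translation elongation factor genes EEF1A1, EEF1A2, EEF1B2, EEF1D, EEF1G, EEF2, EEF2K, TUFM and TSFM, chosen by gene symbol from the 23228 genes counted in 6 RNA-seq libraries made from HEC-1-A cells. HEC-1-A is an established human endometrial adenocarcinoma cell line. The RNA came from 3 control samples and from 3 samples that received SMIP34, a small molecule inhibitor of the nuclear receptor coregulator PELP1, at 20 µM for 24 h. All 6 samples were grown in the same serum-containing McCoy's 5A medium, and the labels describe no genetic change in either group. The methods of the study give vehicle for the controls, while the labels name only the medium. As the cells are 1 line treated at a single dose and time, no other line, dose or time bears on the values below.

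During elongation, eEF1A in its GTP-bound form brings each aminoacyl-tRNA to the ribosome, the eEF1B complex recharges eEF1A by exchanging GDP for GTP, and eEF2 moves the tRNAs and the mRNA through the ribosome after each peptide bond. The kinase eEF2K phosphorylates eEF2 and thereby slows elongation. Mitochondria have their own ribosomes, on which TUFM has the role of eEF1A and TSFM that of its exchange factor. Many mRNAs of ribosomal proteins and elongation factors carry a 5′ terminal oligopyrimidine (TOP) tract, a C at the first base followed by a run of C and T, through which mTOR signalling controls their translation.

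After SMIP34 treatment, 6 of the 9 mRNAs were lower at a Benjamini-Hochberg adjusted p-value under 0.05 in the quasi-likelihood test of edgeR, and 0 were higher. Those that fell were EEF1A1, EEF1B2, EEF1D, EEF1G, EEF2 and TUFM, which are 5 of the 6 cytosolic factors and 1 of the 2 mitochondrial factors. The decreases were small. EEF2 fell by 4.26% and EEF1B2 fell by 16.3%, the ends of the range, and 0 of the 9 passed the absolute log2 fold change of 0.5 that the study set as its limit. Among all 13408 genes tested, 34.6% were called in either direction, 17.2% were called lower, 17.4% higher, and 3.31% were called with the fold limit as well. The same 6 members had no overlap between the groups, as did 21.9% of all genes tested in that direction. Calls were more frequent among abundant mRNAs, and the 6 called members were all in that range. Of the 993 genes with a control mean of at least 200 CPM (counts scaled to the TMM-adjusted library total), 40.4% were called lower and 19.5% higher, with a median log2 fold change of -0.043. The calls for EEF2 and TUFM lay near the threshold and changed with the processing, whereas those of EEF1A1, EEF1B2, EEF1D and EEF1G were kept in every other fit that was run at the same threshold.

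The start of the transcript is shown for the 7 members with an entry in the RefSeq promoter table of GRCh38.p14, because the TOP tract is a feature of this site that the choice of genes did not use. EEF1A2 and EEF1D had no entry. Each line gives 30 bases 5′ to 3′ on the transcript's strand, 10 before the annotated start and 20 from it onwards, and capitals mark the longest run that opens with C and holds only C and T within 10 bases of the start, where it has at least 4 bases.
EEF1A1: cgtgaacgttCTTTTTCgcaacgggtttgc
EEF1B2, downstream start: ctcttcgggtCCTTTTTCCTCTCTTCagcg
EEF1B2, upstream start: aagtggCCCCagcctcgaggccgggcgtct
EEF2: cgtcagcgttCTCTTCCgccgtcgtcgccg
EEF1G: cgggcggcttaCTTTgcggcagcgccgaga
TUFM: cgccggaagtgCCTTCCagccgcaggcgcc
EEF2K: gcccgCTTCTgctcaacctagaccagcccc
TSFM: gagggtgtttatcgcggctagagagatgtc
The windows lie at chr6:73521013-73521042 on the minus strand for EEF1A1, at chr2:206159885-206159914 and chr2:206159599-206159628 on the plus strand for the downstream and upstream starts of EEF1B2, and at chr19:3985444-3985473 on the minus strand for EEF2. Those of EEF1G and TUFM are at chr11:62573872-62573901 and chr16:28846329-28846358 on the minus strand, and those of EEF2K and TSFM at chr16:22206268-22206297 and chr12:57782777-57782806 on the plus strand.

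A C exactly at the annotated start with at least 4 further C or T bases after it was present in EEF1A1, in EEF2 and at the downstream start of EEF1B2. The run was 7 bases long in EEF1A1, 7 in EEF2 and 16 in EEF1B2. In EEF1G and TUFM the run began 1 base after the annotated start, in EEF2K it lay before the start, and TSFM had no such run. This pattern, searched on the transcript's strand only, was present in 4.07% of the 35116 promoters in the table. Among the 9155 genes tested that had an entry, the 677 with such a start had a median log2 fold change of -0.039 and 30.1% were called lower, against 16.2% of the 8478 others. A gene with several annotated starts was placed among the 677 if any of them matched. The sets were not matched for level or exon length, and the part of the start in this difference was not tested. Without the cytosolic ribosomal protein genes and the members, 627 genes remained and 24.6% of them were called lower. A matching run of letters is a description of the annotated start and not a measured start of these transcripts.

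**Figure D1:**
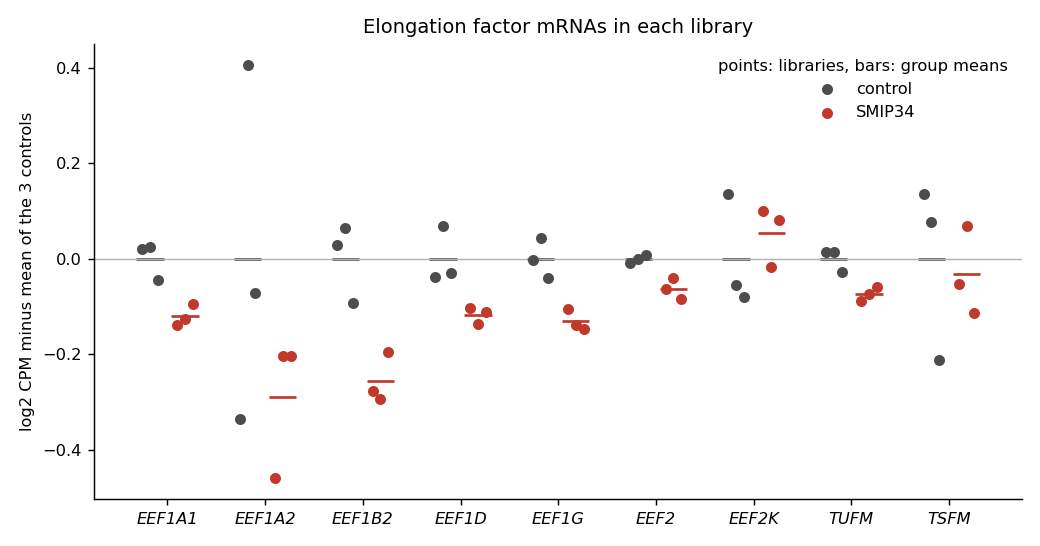
Level of each elongation factor mRNA in each of the 6 libraries, as log2 CPM minus the mean of the 3 controls (vertical axis, log2 units) for the 9 genes (horizontal axis). Points are libraries and bars are group means, and in EEF1A1, EEF1B2, EEF1D, EEF1G, EEF2 and TUFM every SMIP34 point is below every control point.

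EEF1A1, which encodes the main form of eEF1A and lies on chromosome 6 from 74225473 to 74230755 on the minus strand (hg19, as are the positions that follow), was counted at 9956, 9973 and 9509 CPM in control replicates 1, 2 and 3. In SMIP34 replicates 1, 2 and 3 it was at 8918, 8987 and 9186 CPM. The groups did not overlap, and control replicate 3 was the control nearest to the treated libraries. The log2 fold change was -0.12 (standard error 0.026, adjusted p = 0.000782 by the edgeR quasi-likelihood test), with a 95% interval from -0.17 to -0.066. In control cells EEF1A1 held 0.974% of all counts on genes, which made it the gene with rank 2 by CPM, and in treated cells it held 0.908%. Its counts were fractional in 5 of the 6 libraries, since a read that mapped to several places was divided. EEF1A1 has processed copies elsewhere in the genome, so its level depends on how such reads were shared out. It also depends on how many of them were left out below a mapping quality of 2. The part of either was not tested.

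EEF1A2, on chromosome 20 from 62119366 to 62130505 on the minus strand, encodes the form of eEF1A that is typical of muscle and nerve cells. It was low in these libraries, at 2.99, 5.06 and 3.61 CPM in control and 2.73, 3.28 and 3.28 CPM in treated cells. These values rest on 58 to 110 reads in control and 60 to 71 reads in treated libraries. Control replicate 2 was the highest of all and the groups overlapped. The log2 fold change of -0.34 had a 95% interval from -0.71 to 0.034 and did not pass the test (adjusted p = 0.155, edgeR quasi-likelihood test). Without control replicate 2 it was -0.094 (adjusted p = 0.764). Per exon length, EEF1A2 made up 0.0753 ± 0.020% of the eEF1A mRNA in control and 0.0653 ± 0.0061% in treated cells (SD, n = 3 each), so nearly all eEF1A mRNA in both groups was EEF1A1.

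The subunits of the eEF1B exchange complex were all lower, by unequal amounts. EEF1B2, on chromosome 2 from 207024318 to 207027653 on the plus strand, encodes one of the subunits that carry out nucleotide exchange. Its values were 352, 361 and 324 CPM in control and 285, 282 and 301 CPM in treated libraries. The highest treated library was below the lowest control library, and the log2 fold change of -0.26 (standard error 0.034, 95% interval from -0.33 to -0.19, adjusted p = 1.63e-06 by the edgeR quasi-likelihood test) was the largest among the called members. Its counts were fractional in all 6 libraries.

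EEF1D, on chromosome 8, encodes the other exchange subunit. It was at 271, 292 and 273 CPM in control and 259, 253 and 258 CPM in treated cells. The groups did not overlap, but the gap between them was narrow and control replicate 2 stood above the other controls. The log2 fold change was -0.12 (standard error 0.030, adjusted p = 0.0033, edgeR quasi-likelihood test). Without control replicate 2 it was -0.082, with an adjusted p of 0.0435. The row of its pseudogene EEF1DP3 held between 0 and 3 reads per library.

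EEF1G, on chromosome 11 from 62327073 to 62341460 on the minus strand, encodes the structural subunit of the complex. It was at 1434, 1481 and 1398 CPM in control and 1336, 1305 and 1298 CPM in treated cells, again without overlap. Its log2 fold change was -0.13 (standard error 0.026, adjusted p = 0.000292, edgeR quasi-likelihood test). An exon of EEF1G contains all 56 bases of the microRNA row MIR3654 on the same strand, and reads that covered both were divided between them. The MIR3654 row held between 16.2 and 18.3% of the joint count of both rows, which is a count of 5459 to 7177 per library after this division. It fell with a log2 fold change of -0.22 (adjusted p = 0.000128, edgeR quasi-likelihood test), and the reads behind it cannot be told apart from reads of the EEF1G mRNA. With the MIR3654 count added back, the log2 fold change of EEF1G was -0.15.

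The fold change of EEF1B2 was larger than those of its partners in the complex. In RPKM, which is CPM divided by exon length in kilobases, the ratio of EEF1B2 to EEF1D was 3.70, 3.52 and 3.38 in the control libraries and 3.13, 3.17 and 3.33 in the treated ones. The ratio of EEF1A1 to EEF1B2 was 8.93, 8.73 and 9.28 in control and 9.89, 10.1 and 9.63 in treated cells. Neither ratio overlapped between the groups, while the ratio of EEF1G to EEF1B2 did, with control values up to 3.12 and treated values from 3.11. The ratio of EEF1G to EEF1D was 10.6 ± 0.23 in control and 10.5 ± 0.13 in treated cells (SD, n = 3 each). EEF1B2 has the shortest exons of the 9 genes. In a fit with offsets for exon length and GC content it was at -0.18, EEF1A1 at -0.15, EEF1D at -0.10 and EEF1G at -0.051. The ratios above carry no such offsets, and the part of length in them was not tested. These ratios were formed after the values of the genes had been seen and were not tested. An exact two-sided permutation test of 3 against 3 libraries cannot give a p below 0.1.

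EEF2, on chromosome 19 from 3976054 to 3985461 on the minus strand, encodes the translocation factor. Its levels were 2927, 2944 and 2961 CPM in control and 2816, 2864 and 2776 CPM in treated libraries. The 3 controls lay within a narrow range and all treated libraries were below them. This was a log2 fold change of -0.063 (standard error 0.024, 95% interval from -0.11 to -0.013, adjusted p = 0.0462 by the edgeR quasi-likelihood test), close to the threshold. Leaving out 1 library kept the call only without control replicate 3. Without any other single library (control replicate 1 or 2 or SMIP34 replicate 1, 2 or 3) the adjusted p lay between 0.0631 and 0.211, with log2 fold changes from -0.074 to -0.052.

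EEF2K, on chromosome 16 from 22217592 to 22300066 on the plus strand, encodes the kinase that inhibits eEF2. It was at 44.5, 39.0 and 38.3 CPM in control and 43.4, 40.0 and 42.8 CPM in treated cells. The groups overlapped, and a control library held the highest value. The log2 fold change was 0.056 (95% interval from -0.058 to 0.17, adjusted p = 0.474 by the edgeR quasi-likelihood test), and with offsets for exon length it was -0.021. The ratio of EEF2 to EEF2K in RPKM was 171 ± 14.5 in control and 157 ± 9.15 in treated cells (SD, n = 3 each), with overlapping groups.

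TUFM, on chromosome 16 from 28853732 to 28857729 on the minus strand, encodes the factor that brings aminoacyl-tRNA to the mitochondrial ribosome. It was at 343, 343 and 333 CPM in control and 319, 323 and 326 CPM in treated libraries, without overlap. For TUFM the log2 fold change was -0.074 (standard error 0.027, 95% interval from -0.13 to -0.019, adjusted p = 0.0335 by the edgeR quasi-likelihood test). Without any single library other than control replicate 3 the adjusted p lay between 0.0637 and 0.132. TUFM shares 58 exon bases with the microRNA row MIR4721, which held between 15.9 and 17.7% of their joint count, and with that row added back its log2 fold change was again -0.074.

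TSFM, on chromosome 12 from 58176528 to 58196639 on the plus strand, encodes the exchange factor of TUFM. Its values of 41.4, 39.8 and 32.6 CPM in control and 36.4, 39.5 and 34.9 CPM in treated cells overlapped, with control libraries at both ends of the range. The log2 fold change was -0.037 (95% interval from -0.17 to 0.099, adjusted p = 0.707, edgeR quasi-likelihood test). The interval of TSFM includes the fold changes of TUFM and EEF1A1, so that a decrease of their size could not be told from no change at this spread.

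**Figure D2:**
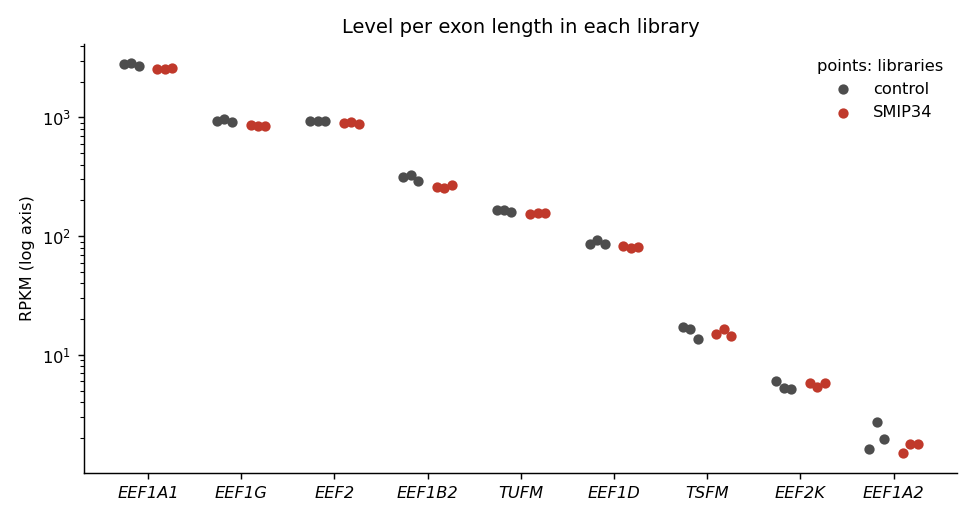
Level of the 9 elongation factor mRNAs in RPKM (vertical axis, log scale) in each library, with the genes ordered by level in control cells along the horizontal axis. Points are libraries, and the levels span from 2794 RPKM for EEF1A1 to 2.11 RPKM for EEF1A2 in the control mean.

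The elongation factors differed in level far more between genes than between groups. In control cells, EEF1A1 was at 2794 ± 75.0 RPKM (SD, n = 3) and had rank 9 of the 23228 genes by RPKM. EEF1G, at 935 ± 27.1 RPKM, and EEF2, at 932 ± 5.45 RPKM, came next and as counted did not differ beyond their spread. They were followed by EEF1B2 at 311 ± 17.6, TUFM at 164 ± 2.62 and EEF1D at 88.1 ± 3.64 RPKM. TSFM was at 15.8 ± 1.96, EEF2K at 5.47 ± 0.456 and EEF1A2 at 2.11 ± 0.577 RPKM. Apart from EEF1G and EEF2, neighbours in this order did not overlap in any control library. In treated cells the order as counted was the same except for EEF1G and EEF2. There EEF2, at 893 ± 13.9 RPKM, was above EEF1G, at 854 ± 13.1 RPKM. The level of EEF1G leaves out the count placed on MIR3654. This was on average 18.1% of the joint count in control and 17.2% in treated libraries. With this count added back, EEF1G would lie above EEF2 in both groups.

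The sum of the cytosolic factors (EEF1A1, EEF1A2, EEF1B2, EEF1D, EEF1G and EEF2) was 5062 ± 115 RPKM in control and 4661 ± 28.5 RPKM in treated cells. That of the mitochondrial factors TUFM and TSFM was 180 ± 4.56 and 171 ± 1.53 RPKM (SD, n = 3 each). The log2 ratio of the cytosolic to the mitochondrial sum was 4.80, 4.82 and 4.82 in the control libraries and 4.78, 4.75 and 4.77 in the treated libraries. The groups did not overlap, and their means differed by -0.048. EEF1A1 makes up most of the cytosolic sum and TUFM most of the mitochondrial sum, so this ratio largely compares these genes. The log2 ratio of EEF1A1 to TUFM was 4.09 ± 0.016 in control and 4.05 ± 0.0095 in treated libraries, without overlap. By contrast, the ratio of EEF2 to TUFM overlapped between the groups, at 5.69 ± 0.12 in control and 5.73 ± 0.12 in treated libraries (SD, n = 3 each). These differences were descriptions and were not tested.

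Over all 9 genes, the share of the library was 1.51 ± 0.024% in control and 1.42 ± 0.011% in treated cells (SD, n = 3 each). In bulk RNA, fewer transcripts per cell and a change in the total to which they are scaled cannot be told apart.

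**Figure D3:**
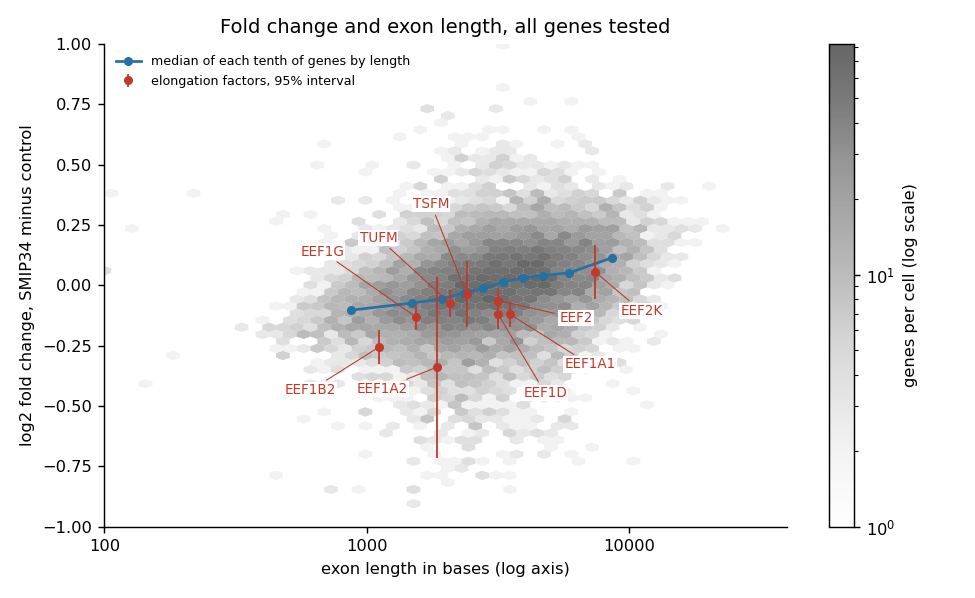
Log2 fold change, SMIP34 minus control (vertical axis), against exon length in bases (horizontal axis, log scale) for the genes tested, with grey cells shaded by the number of genes and genes beyond an absolute log2 fold change of 1 not drawn. Blue points are the medians of 10 bins of nearly equal gene number by length and run from -0.10 to 0.12, and red points with 95% intervals are the 9 elongation factors, from EEF1B2 with the shortest exons to EEF2K with the longest.

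Across all genes tested, the fold change moved with exon length. The genes were divided by length into 10 bins of nearly equal size. The median log2 fold change was -0.10 in the bin of shortest exons, up to 1206 bases, where 32.8% were called lower, and 0.12 in the bin of longest exons, where 5.97% were. EEF1B2, with 1110 exon bases, was in bin 1 and EEF1G, with 1538 bases, in bin 2. EEF2K, with 7412 bases, was in bin 10. EEF1A1, EEF1D and EEF2, with 3512, 3160 and 3158 bases, were in bin 6, whose median was 0.014 and in which 15% were called lower.

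When each library was given offsets for exon length, EEF1A1 had a log2 fold change of -0.14 and EEF1B2 of -0.18. EEF1D was at -0.12 and EEF2 at -0.068. EEF1G was at -0.071 (adjusted p = 0.00654) and TUFM at -0.033 (adjusted p = 0.292), so that in this edgeR fit the call for TUFM was lost. With offsets for exon length and GC content together, EEF1G was at -0.051 (adjusted p = 0.0313, edgeR). The part of length in these differences was not tested.

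**Figure D4:**
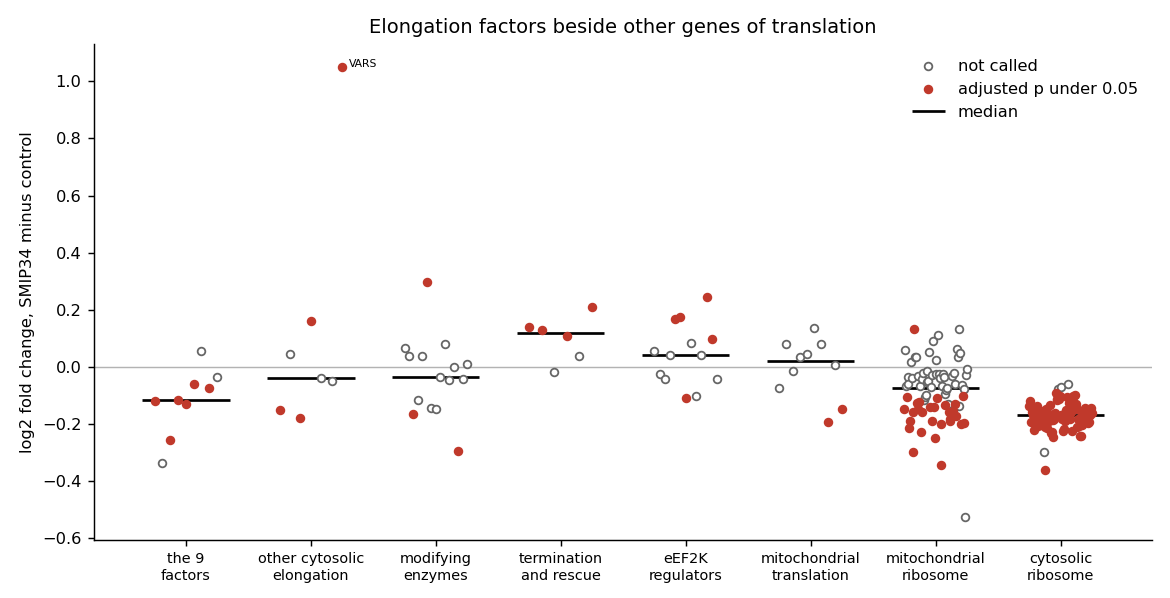
Log2 fold change, SMIP34 minus control (vertical axis), of the 9 elongation factors and of the genes of 7 further lists (horizontal axis). Filled points have an adjusted p under 0.05, open points do not, and bars are medians, which run from -0.17 for the cytosolic ribosome to 0.12 for termination and rescue.

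Other genes of elongation and of its neighbouring steps moved in both directions. Of 7 other genes of cytosolic elongation, 2 were called lower and 2 higher, with a median log2 fold change of -0.041, against -0.0024 over all genes tested. Over all genes tested, 17.2% were called lower and 17.4% higher, so in a list of 7 these counts are no result about the list. EIF5A, which encodes the hypusine-bearing factor that helps the ribosome through difficult peptide bonds, averaged 1075 ± 9.76 CPM in the controls and 967 ± 16.2 CPM after SMIP34 (SD, 3 libraries each), lower by a log2 fold change of -0.15 (adjusted p = 2.3e-05 by the edgeR quasi-likelihood test). With length offsets it was at -0.10. EIF5AL1, a close copy of EIF5A that can share its reads, was at -0.18. EEFSEC, the elongation factor for selenocysteine, rose by a log2 fold change of 0.16 (adjusted p = 0.0143, edgeR), a call that was lost without control replicate 3 or SMIP34 replicate 1 and with DESeq2 (adjusted p = 0.0658). With DESeq2, 0 of the 7 were called higher.

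The other call in that list was VARS, the valyl-tRNA synthetase bound to eEF1, at a log2 fold change of 1.05 (adjusted p = 0.0418, edgeR). It rested on SMIP34 replicate 2, which held 10.9 CPM against 1.70 to 3.70 CPM in the other libraries. Without that library the log2 fold change was -0.050 (adjusted p = 0.92), and without control replicate 1 or 2 the adjusted p was 0.121 or 0.195. The gene is annotated at 7 copies of its region, and its counts were fractional in 5 libraries. What this did to its level was not tested.

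Among 15 genes listed for the modification of elongation factors, 2 were called lower and 1 higher, with a median of -0.036. The shares over all genes tested were 17.2% lower and 17.4% higher, so the count is no result about this list. DPH1 and DNAJC24 both act in the synthesis of diphthamide, the modified histidine of eEF2, and moved in opposite directions. DPH1 was at -0.17 (adjusted p = 0.00723) and DNAJC24 at 0.29 (adjusted p = 0.0019) in the edgeR test. METTL21B, a lysine methyltransferase of eEF1A also known as EEF1AKMT3, was at -0.30 (adjusted p = 0.0327, edgeR), from 9.16 ± 0.809 to 7.44 ± 0.458 CPM. The call of DPH1 was lost without SMIP34 replicate 2 and with offsets for length and GC content (adjusted p = 0.0709), and that of METTL21B without control replicate 1 or 3 or SMIP34 replicate 1 or 2 and with DESeq2 (adjusted p = 0.118).

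Of 13 regulators of eEF2K, 4 were called higher and 1 lower, with a median of 0.042, against 17.4% higher and 17.2% lower over all genes tested. With length offsets 2 were called higher. RPS6KA3, which encodes the kinase RSK2, had a log2 fold change of 0.24 (adjusted p = 0.000208), and MTOR, the kinase at the centre of mTOR signalling, of 0.17 (adjusted p = 0.000854). RPTOR, the subunit of mTOR complex 1 that binds its substrates, was lower at -0.11 (adjusted p = 0.0439, edgeR quasi-likelihood test throughout), a call lost without control replicate 2 or SMIP34 replicate 1 or 2 and held in 11 of 18 alternatives. PRKAA2, a catalytic subunit of AMPK, was also called higher, at 0.17 (adjusted p = 0.00285, edgeR quasi-likelihood test). With length offsets MTOR was at 0.077 (adjusted p = 0.0928) and PRKAA2 at 0.062 (adjusted p = 0.277). With offsets for length and GC content, RPS6KA3 was at 0.13 (adjusted p = 0.0226, edgeR). In that fit MTOR was called, at 0.093 (adjusted p = 0.0375), and PRKAA2 was not, at 0.023 (adjusted p = 0.716). RPTOR was at -0.18 with length offsets (adjusted p = 0.0012), and EEF2K itself was not called in any of these fits.

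Of 6 genes of termination and ribosome rescue, 4 were called higher and 0 lower, with a median log2 fold change of 0.12. Over all genes tested, 17.4% were called higher. ETF1, the release factor eRF1, averaged 312 ± 0.511 CPM in the controls and 343 ± 5.07 CPM after SMIP34 (SD, 3 libraries each), higher by a log2 fold change of 0.14 (adjusted p = 0.000183). PELO, which recognises stalled ribosomes, rose by 0.21 (adjusted p = 0.0031, edgeR quasi-likelihood test for both). The median exon length was 3942 bases in this list and 2501 bases among the 6 cytosolic factors. With offsets for length and GC content together, 2 of the 6 were called higher and 1 lower.

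Beside TUFM and TSFM, 10 further mitochondrial translation factors were tested, of which 2 were called lower and 0 higher, with a median log2 fold change of 0.021. The lower calls were near the 17.2% of all genes tested. MRRF, the mitochondrial ribosome recycling factor, was at -0.20 (adjusted p = 0.000677) and ICT1, a peptidyl-tRNA hydrolase of the mitochondrial ribosome, at -0.15 (adjusted p = 0.0345, edgeR quasi-likelihood test). The call of ICT1 was lost without control replicate 1 or 2 or SMIP34 replicate 3, and with length offsets it was at -0.058 (adjusted p = 0.45). It held in 10 of 18 alternatives. For comparison, 75 of 79 cytosolic ribosomal protein genes were called lower with a median of -0.17, and 29 of 77 mitochondrial ribosomal protein genes were called lower and 1 higher with a median of -0.074. Their median exon lengths were 826 and 1286 bases. The median over the 9 elongation factors was -0.12, and the difference from these lists was not tested.

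The patterns of EEF1A1 and TUFM over the 6 libraries were closely alike. Among 9909 genes that averaged 10 CPM or more, TUFM had the highest Pearson correlation of log2 CPM with EEF1A1 (r = 0.998), followed by PDHA1, RAN, C1orf186 and EEF1B2 (r = 0.994). For TUFM the most alike were EEF1A1, RAN, C20orf118, PDHA1 and ATP5G3. For EEF1B2 they were C1orf186 (r = 0.9985), PDHA1, RPS12, RPS27A and ANXA2. For EEF2 they were IQCK (r = 0.9948), DMAP1, ST3GAL4, OGG1 and TMEM19. PDHA1 had r = 0.9982 with EEF1A1, so correlations of this size were not particular to EEF1A1 and TUFM. Ribosomal protein genes took 3 of the 50 most alike genes for EEF1A1, 6 for EEF1B2, 2 for TUFM and 0 for EEF2, and made up 0.797% of the genes compared. The points share library, treatment and scaling, so these correlations are descriptions of 6 libraries.

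**Figure D5:**
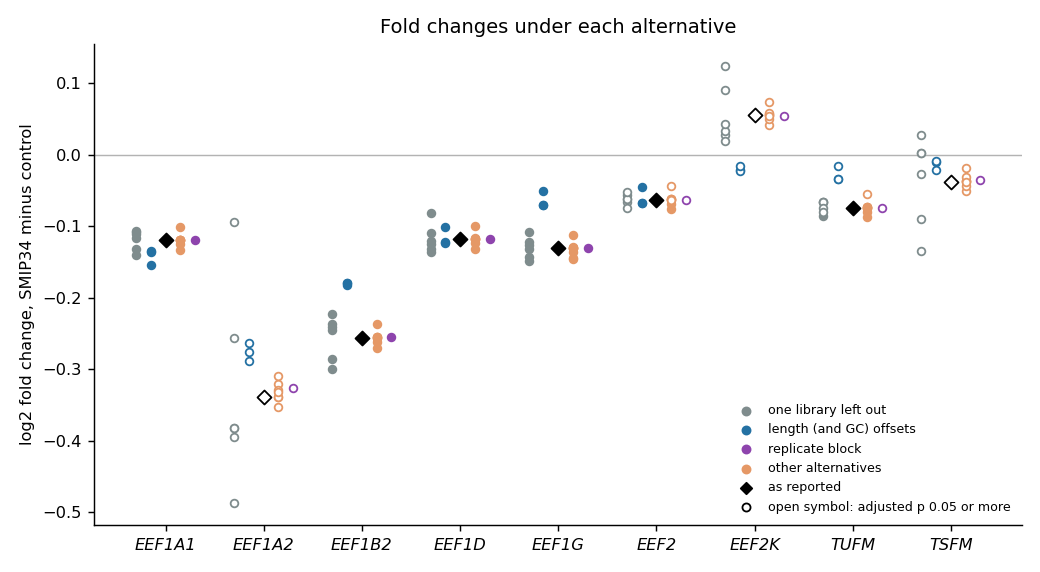
Log2 fold change, SMIP34 minus control (vertical axis), of each elongation factor (horizontal axis) as reported (diamonds) and under each alternative (circles, coloured by kind). Open symbols have an adjusted p of 0.05 or more, and EEF1A1, EEF1B2, EEF1D and EEF1G have filled symbols throughout.

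The libraries held between 19562711 and 22014835 counts on genes, and counting error in control replicate 1 was 0.227% of the level for EEF1A1, 0.420% for EEF2 and 13.1% for EEF1A2. The control libraries of EEF1A2 varied by 27.4% of their mean. Epithelial markers (KRT8, KRT18, KRT19, EPCAM, CDH1 and PAX8) lay between 204.9 and 883.1 CPM, and KRT8, KRT19 and PAX8 were called lower, PAX8 in 8 of 18 alternatives and in 0 of the 6 fits that left out 1 library. Markers of leukocytes, fibroblasts and endothelium (PTPRC, CD3E, COL1A2, PECAM1 and CDH5) lay between 0 and 0.337 CPM, while the fibroblast marker COL1A1 was between 2.71 and 4.53 CPM and was called higher, with a log2 fold change of 0.50 (adjusted p = 0.0151, edgeR). The call of COL1A1 held in 14 of 17 alternatives, and its part in the results was not tested.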

How the data were processed

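RNA was sequenced from 3 control and 3 SMIP34-treated HEC-1-A samples, grouped by their labels. The values are estimated counts per gene, which the authors deposited without normalization. Per the file headers, featureCounts 1.5.0-p1 counted reads on hg19 exons by strand at a mapping quality of at least 2, dividing reads between places and genes. The labels also name HISAT2, SAMtools and bcl2fastq, whereas the methods of the study name tophat2, HTSeq and DESeq2. The labels name library kits of different makers without assigning them, and do not say that replicates were separate cultures, so p-values measure only the spread between these samples.

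Counts were rounded, filtered with edgeR's filterByExpr function (13408 genes left), scaled by TMM and tested over all genes by quasi-likelihood in edgeR 4.0.16 (R 4.3.3), with Benjamini-Hochberg adjustment and a threshold of 0.05. Log2 CPM used a prior count of 2. RPKM used the exon length given in the files. The common biological coefficient of variation was 3.03%. Replicates of a group differed by more than counting noise. The procedure was tested on simulated data. Alternatives were other scalings, other filters, DESeq2 1.42.0, limma voom (limma 3.58.1), the legacy edgeR method, the replicate number as a block, loess offsets (span 0.3) for exon length, and leaving out each library. Offsets for GC content and the adding back of microRNA rows were chosen after seeing the data.

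The members and lists were chosen with earlier results of these data known. Genes named are the 9 members, their overlapping and pseudogene rows, at most 2 called genes in each direction per list, the 5 genes most alike to EEF1A1, EEF1B2, EEF2 and TUFM, and cell type markers. PRKAA2 was named beyond this rule, as its call was lost with length offsets. Figures were drawn with matplotlib 3.10.9.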

Additional observations from a re-analysis of the deposited data

How the results depend on the processing

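The number of members called lay between 4 and 6 under the other fits, and was 0 with the fold limit of 0.5. EEF1A1, EEF1B2 and EEF1D were called lower in 18 of 18 alternatives and EEF1G in 19 of 19, against 10 of 18 for EEF2 and 9 of 19 for TUFM, with EEF1A2, EEF2K and TSFM called in 0. Scaled by library size only, the adjusted p was 0.153 for EEF2 and 0.112 for TUFM. With the legacy edgeR method it was 0.0502 for EEF2. In the replicate block fit, 4 members were called, with adjusted p of 0.128 for EEF2 and 0.0705 for TUFM. Deviations of libraries with the same number had correlations of -0.080, 0.019 and -0.13 over 9910 genes, and the numbers were not treated as pairs. EEF2K turned negative with length offsets (-0.021), with length offsets and the replicate block (-0.023) and with length and GC offsets (-0.015). TSFM lay between -0.134 and 0.028 when 1 library was left out. EEF1A2 lay between -0.49 and -0.094, with the value nearest to 0 reached without control replicate 2. Why these values moved was not tested. The 5 further lists other than the ribosomal proteins had 7, 15, 10, 6 and 13 genes tested. They held 18 called genes, and between 13 and 20 under the alternatives. Over all 13408 genes tested, 34.6% were called in either direction, a share that moved to 3326 of 18486 genes with DESeq2. In the main fit the count in the lists is near the share over all genes, so it is no result about these lists. The median of all genes lay between -0.020 and 0.016 under every scaling and filter.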

Other observations

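Control replicate 3 was the lowest control for EEF1A1, EEF1B2, EEF1G, EEF2K, TUFM and TSFM and the highest for EEF2. Without it, the log2 fold changes were -0.14 for EEF1A1, -0.30 for EEF1B2, -0.15 for EEF1G and -0.085 for TUFM, and -0.057 for EEF2. The ratio of EEF1A1 to EEF2 in RPKM was 2.89 in that library, inside the range of 2.82 to 2.98 in the treated libraries, and 3.06 and 3.05 in the other controls.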
